A study of Rattus norvegicus with 4 samples.

Results

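Collagens are the main structural proteins of the arterial wall, and each is built of 3 chains encoded by genes named Col, the number of the collagen type, the letter a and the number of the chain. All probe sets annotated to exactly 1 gene symbol of that form were taken, which gave 58 probe sets for 41 collagen chain genes, out of 31099 probe sets on the array and 14218 genes with a symbol of their own. The 41 genes cover 26 collagen types. Of them 27 had 1 probe set, 11 had 2 and 3 had 3.

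Collagen chains wind into a triple helix in the endoplasmic reticulum, are hydroxylated there, and are secreted as procollagen. Fibrillar collagens of types I, III and V make the tensile fibrils of the vessel wall, and type XI chains belong to the same group but are best known from cartilage. Type IV collagen forms the sheet-like network of the basement membrane that surrounds each smooth muscle cell, while type VI makes beaded filaments beside it. Type VIII, a short-chain collagen, and the multiplexins XV and XVIII are found in vessel walls, and FACIT collagens such as XII and XIV decorate the surface of fibrils.

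The cells were smooth muscle cells cultured from the aorta of Sprague-Dawley rats, and 4 arrays were run, 1 per group. All cultures were kept in serum for 3 days until confluent and without serum for a further 3 days, before 24 h with a factor or a vehicle. The groups were IL-1b, an inflammatory cytokine, at 2.5 ng/mL; its vehicle, BSA at 0.1% with 10 mM acetic acid; PDGF-DD, a ligand of PDGF receptor beta, at 30 ng/mL; and its vehicle, BSA at 0.01%. The labels do not say whether the cultures came from the same animal. With 1 array per group no test is possible, there is no replicate check, the number of arrays limits the precision, and every value below describes these arrays only.

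Intensities are linear MAS5 values after rescaling, and a value of 28.1 was taken as the floor below which a probe set was treated as dark. Between 58.3% and 61.5% of probe sets lay above it on each array. The 7 smooth muscle marker genes had summed intensities of 27111 on the IL-1b vehicle array, 8453 with IL-1b, 19890 on the PDGF-DD vehicle array and 4532 with PDGF-DD. Acta2, Tagln and Cnn1 were the brightest of them on every array. Des was above the floor on the IL-1b vehicle array only, at 42.6, and Myh11 was near the floor with PDGF-DD, at 29.5. Of 5 endothelial markers 4 (Pecam1, Vwf, Kdr and Emcn) were at the floor on all arrays, with sums from 26.97 to 64.3. Of 7 leukocyte and macrophage markers 5 were, Ptprc, Cd68, Csf1r, Itgam and Cd163. The sums over all 7, from 1164 to 1425, were mostly Cd14, at 1117 to 1333. Fibroblast markers summed to 234, 1854, 384 and 302 in the same array order, with Dpt (dermatopontin) at 1288 on the IL-1b array. The proliferation marker Mki67 had intensities of 83.6, 64.8, 858 and 1799. As a measure of intact RNA, beta-actin probes at the 3' end were compared with those at the 5' end. They were 1.58, 2.05, 1.26 and 1.37 times as bright in the same array order, so this ratio also differed between the arrays compared. The part of these differences in the collagen results was not tested, and fewer cells of a type cannot be told apart from less RNA per cell.

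With PDGF-DD most collagen chains were lower than with its vehicle. Col14a1, a FACIT collagen, was 8.64-fold lower, Col8a2, a short-chain collagen, 7.22-fold lower, and the basement membrane chains Col4a2 and Col4a1 were 2.88-fold and 2.66-fold lower. The fibrillar chains Col11a1 and Col27a1 were 2.74-fold and at least 2.71-fold lower, and the dim Col19a1 at least 5.93-fold lower. Col15a1, a multiplexin, went the other way at 3.71-fold higher. Of 23 collagen genes that were measured, with at least 1 of both arrays above the floor, 7 were at least 2-fold lower, where 4.67% of all measured genes were, and 1 was at least 2-fold higher, where 4.24% of all genes were. In either direction that is 34.8% of collagen genes against 8.91% of all genes. The median log2 ratio was -0.50 over collagen genes and 0.01 over all genes. Of the 23 collagen ratios 17 were below 0 (73.9%), beside 49.0% of all measured genes.

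With IL-1b the differences from its vehicle were fewer. Col11a1 was 4.63-fold lower, Col4a6 3.31-fold lower and Col4a5 2.03-fold lower, while Col5a3 was at least 2.46-fold higher and Col8a1 2.39-fold higher. These 3 and 2 genes stood among 26 measured collagen genes, or 19.2%; the shares of all genes past this rule were 5.42% lower, 6.15% higher and 11.6% in either direction. The collagen median was -0.29, beside 0.02 for all genes.

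The vehicle arrays, which received no factor, also differed from each other. On the PDGF-DD vehicle array, 4 of 25 measured collagen genes (Col8a1, Col15a1, Col18a1 and Col19a1) were at least 2-fold higher than on the IL-1b vehicle array and 3 (Col4a6, Col11a1 and Col12a1) were lower, against 5.79% and 4.67% of all genes. In either direction this is 28% of collagen genes and 10.5% of all genes. The vehicles differ in composition, and that difference cannot be told apart from any difference between cultures or arrays.

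Each factor was therefore also set against the vehicle of the other. No collagen gene was at least 2-fold from both vehicle arrays in the same direction with IL-1b, where 4.85% of all measured genes were (3.08% higher and 1.77% lower). This count, 0 of 26, is near that share and depends on the floor. Col23a1 was at least 1.98-fold higher than either vehicle, a bound. Col19a1 was at least 1.63-fold lower than the IL-1b vehicle and at least 5.93-fold lower than the PDGF-DD vehicle. With a floor at the 30th percentile its log2 ratio to the IL-1b vehicle was -1.53, past 2-fold. With PDGF-DD, 6 of 23 were lower than both (Col4a1, Col4a2, Col8a2, Col11a1, Col14a1 and Col27a1) and 1, Col15a1, was higher than both, beside 3.17% and 3.39% of all genes, 6.57% in either direction. Against the vehicle of the other factor alone, IL-1b had 1 of 25 measured collagen genes at least 2-fold higher (Col12a1) and 3 lower (Col8a2, Col15a1 and Col19a1), beside 5.44%, 4.97% and, in either direction, 10.4% of all genes. PDGF-DD had 4 of 25 higher and 10 lower than the IL-1b vehicle, beside 9.64% and 10.3% of all genes. The comparisons with a shared array are not independent of each other. Across the 19 collagen genes read above the floor by all 4 arrays, the PDGF-DD array was the lowest for 13 (68.4%), and it was for 32.9% of all 9165 such genes. The IL-1b vehicle array was the highest for 10 (52.6%), and for 29.0% of all such genes.

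**Figure D1:**
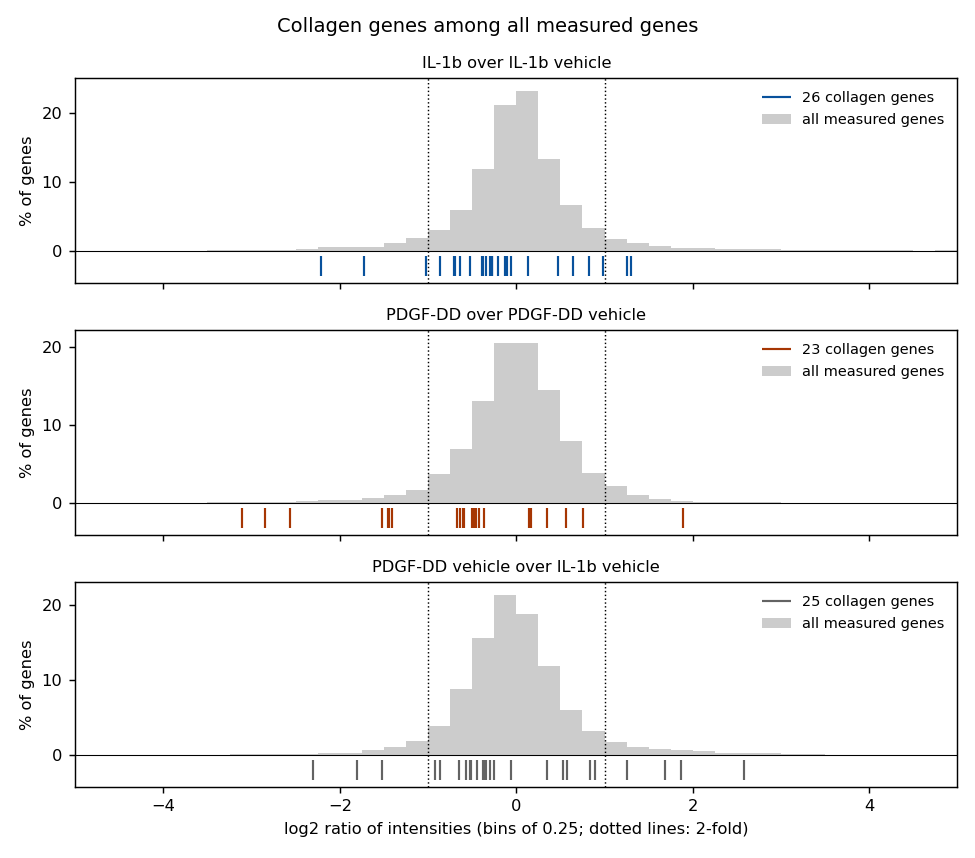
Share of all measured genes (grey bars, percent, in bins of 0.25) by log2 ratio of intensities in 3 comparisons, with each measured collagen gene as a tick under the axis and dotted lines at 2-fold. In the PDGF-DD comparison 7 of 23 ticks lie at or below the lower line and 1 at or above the upper line; in the IL-1b comparison 3 and 2 of 26 do.

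**Figure D2:**
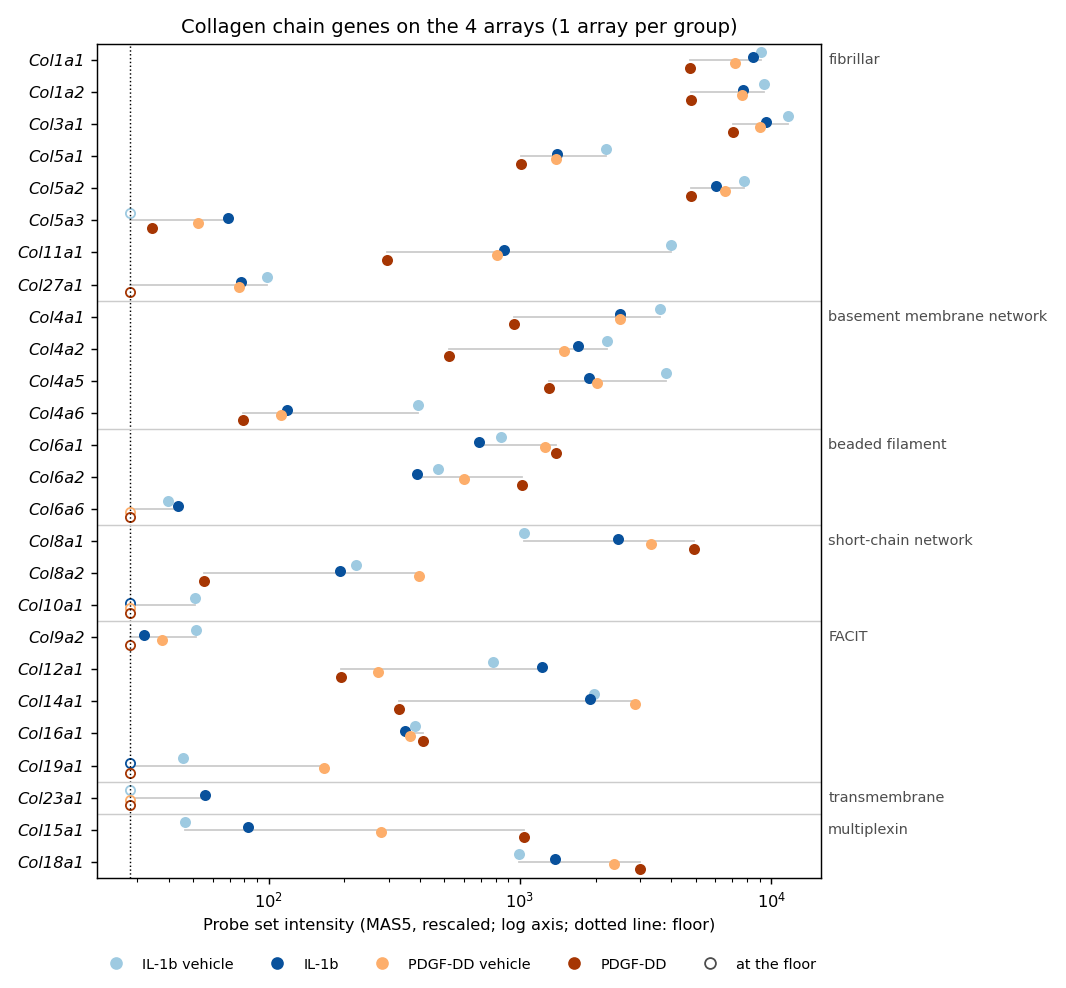
Intensity (log axis) of the 26 collagen genes that exceeded the floor somewhere, by array and grouped by collagen family; open circles are values at the floor of 28.1 (dotted line), and each group is 1 array. For most fibrillar and basement membrane chains the IL-1b vehicle array is the highest and the PDGF-DD array the lowest, whereas Col8a1, Col15a1 and Col18a1 run in the opposite order.

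Among the fibrillar chains, the brightest probe sets belonged to types I, III and V, and these differed by less than 2-fold within each factor's own comparison. Col1a1 had intensities of 9091 on the IL-1b vehicle array, 8460 with IL-1b, 7156 on the PDGF-DD vehicle array and 4731 with PDGF-DD. Its partner in the type I trimer, Col1a2, had 9390, 7733, 7620 and 4794. The PDGF-DD array was the lowest for both, with ratios to its vehicle of 1.51-fold and 1.59-fold lower, and the other 3 arrays lay closer together.

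Col3a1, the single chain of type III collagen, had intensities of 11670, 9545, 9035 and 7021 in the same array order. Col5a2, which encodes a type V chain that helps to start fibrils, had 7810, 6008, 6561 and 4778. The genes of Col3a1 and Col5a2 are neighbours on chromosome 9, with no other protein-coding gene between them in the GRCr8 annotation, and their log2 ratios with PDGF-DD were -0.36 and -0.46. Col5a1, the other main type V chain, had 2192, 1411, 1396 and 1009. All 3 were highest on the IL-1b vehicle array and lowest on the PDGF-DD array, and the IL-1b and PDGF-DD vehicle arrays lay between, at similar levels.

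These arrays in the middle were alike across the fibrillar and basement membrane chains. Over the 12 measured genes of both families the median absolute log2 ratio of IL-1b over the PDGF-DD vehicle was 0.086, with values from -0.13 to 0.41. Over all measured genes it was 0.32. The corresponding median for the 12 genes was 0.45 for IL-1b over its own vehicle and 0.62 for PDGF-DD over its vehicle. For all measured genes these medians were 0.29 and 0.32. With PDGF-DD all 12 ratios were below 0, from -1.52 to -0.36, beside 49.0% of all measured genes below 0.

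Col11a1, a type XI chain that joins type V chains in mixed fibrils, differed more than the other bright fibrillar chains. Its intensities were 3990 on the IL-1b vehicle array, 862 with IL-1b, 809 on the PDGF-DD vehicle array and 295 with PDGF-DD. The IL-1b vehicle array was far above the other 3, and the PDGF-DD array was below all of them. Col11a1 was 2.74-fold lower with PDGF-DD than with its vehicle, and 13.5-fold lower than with the IL-1b vehicle. With IL-1b it was 4.63-fold lower than with its own vehicle, but 1.07-fold higher than with the PDGF-DD vehicle. The 5 cartilage markers on the array had summed intensities of 130, 124, 53.4 and 59.1 in the same array order. Matn1, Hapln1 and Snorc were highest on the IL-1b vehicle array, at 31.7, 38.6 and 33.4, near the floor, and Acan was highest with IL-1b, at 45.1. Col2a1, the main cartilage collagen, was at the floor on all 4 arrays. The part of cartilage genes in the Col11a1 values was not tested.

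The dim fibrillar chains gave bounds. Col27a1, a collagen of developing cartilage and other tissues, had intensities of 98.8, 77.7, 76.2 and 19.7, the last at the floor, so it was at least 2.71-fold lower with PDGF-DD than with its vehicle. Col5a3, a further type V chain, was at the floor on the IL-1b vehicle array and had 69.2 with IL-1b, 52.2 on the PDGF-DD vehicle array and 34.4 with PDGF-DD. Its difference with IL-1b therefore rests on a low value of 1 vehicle array, and against the PDGF-DD vehicle it was 1.32-fold higher. Both calls of 2-fold were lost with a floor at the 50th percentile of all values, where the log2 ratios were -0.51 for Col27a1 with PDGF-DD and 0.37 for Col5a3 with IL-1b.

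Of the 4 measured basement membrane chains, Col4a1 and Col4a2 carry the network of nearly all basement membranes and assemble together. Col4a1 had intensities of 3597 on the IL-1b vehicle array, 2508 with IL-1b, 2508 on the PDGF-DD vehicle array and 944 with PDGF-DD. For Col4a2 they were 2215, 1698, 1494 and 520. Both genes had the PDGF-DD array well below the other 3, with log2 ratios to its vehicle of -1.41 and -1.52 and to the IL-1b vehicle of -1.93 and -2.09. With IL-1b their log2 ratios were -0.52 and -0.38, under 2-fold.

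Both genes lie head to head on chromosome 16 and are transcribed away from each other. In RefSeq on GRCr8 the start sites are 77 bases apart, with Col4a1 on the plus strand. These genes had nearly the same ratio in every comparison, within 0.18 on the log2 scale. Col1a1 and Col1a2, on chromosomes 10 and 4, were also close, within 0.22. Col4a5 and Col4a6, likewise head to head, differed by up to 0.89. The part of a shared start region in these ratios was not tested. Shown next are the bases between the starts of Col4a1 and Col4a2. They are given 5′ to 3′ on the plus strand, from chr16:84885521-84885596, with the letters GGGCGG or their reverse complement (the GC box) in capitals.
Col4a1 and Col4a2, between the starts: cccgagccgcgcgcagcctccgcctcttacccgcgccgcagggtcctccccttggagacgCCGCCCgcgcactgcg
This stretch held 1 GC box and no match on either strand to CCAAT or TATAAA. A GC box stands within 76 bases before the start of 19.3% of 27457 RefSeq genes, CCAAT within 12.96% and TATAAA within 4.78%.

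Col4a5 and Col4a6, which make the type IV network of smooth muscle basement membranes, lie head to head on the X chromosome, with start sites 1415 bases apart. Col4a5 had intensities of 3830, 1888, 2026 and 1300 in the array order above, and Col4a6 had 391, 118, 112 and 79.1. For both the IL-1b vehicle array was the highest, and the IL-1b and PDGF-DD vehicle arrays were near each other. Col4a6 was 3.31-fold lower with IL-1b than with its vehicle, but 1.06-fold higher than with the PDGF-DD vehicle. Col4a5 was just past the rule, at 2.03-fold lower, and had a log2 ratio of -0.998 without rescaling, just inside 2-fold. With PDGF-DD both were less than 2-fold lower than with its vehicle, at log2 ratios of -0.64 and -0.50. Col4a4 was at the floor on all arrays.

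**Figure D3:**
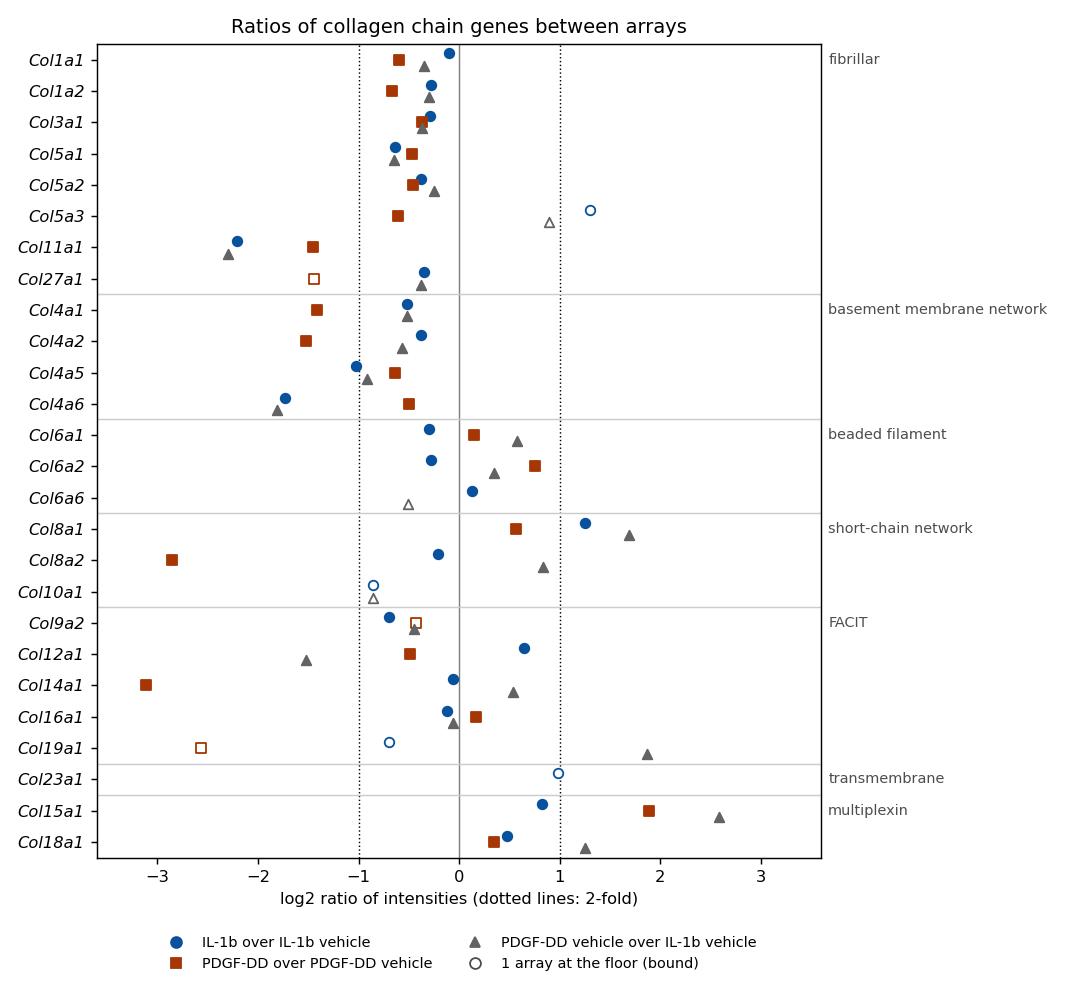
Log2 ratios of intensities for the measured collagen genes in IL-1b over its vehicle (circles), PDGF-DD over its vehicle (squares) and the PDGF-DD vehicle over the IL-1b vehicle (triangles), with dotted lines at 2-fold; open symbols are bounds with 1 array at the floor. Col4a1, Col4a2, Col8a2 and Col14a1 are past the lower line with PDGF-DD only, and for Col11a1, Col4a6 and Col8a1 the circle and the triangle lie near each other.

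Both multiplexins were highest on the PDGF-DD array and next highest with its vehicle. Col15a1 encodes a collagen of the zone between basement membrane and matrix, and had intensities of 46.6 on the IL-1b vehicle array, 82.7 with IL-1b, 279 on the PDGF-DD vehicle array and 1036 with PDGF-DD. The IL-1b array and its vehicle were both below the PDGF-DD array and its vehicle. Col15a1 was 3.71-fold higher with PDGF-DD than with its vehicle and 22.2-fold higher than with the IL-1b vehicle. The vehicle arrays themselves were 5.99-fold apart. Col18a1, whose end fragment is endostatin, an inhibitor of vessel growth, had 991, 1379, 2363 and 3000. It was 1.27-fold higher with PDGF-DD than with its vehicle, less than the 2.38-fold difference between the vehicles.

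Type VIII collagen is a hexagonal lattice protein that smooth muscle cells make in injured arteries, and its chains parted with PDGF-DD. Col8a1 had intensities of 1034 on the IL-1b vehicle array, 2467 with IL-1b, 3333 on the PDGF-DD vehicle array and 4942 with PDGF-DD. Col8a2 had 224, 193, 398 and 55.1. The PDGF-DD array was thus the highest for Col8a1 and the lowest for Col8a2. Col8a1 was 1.48-fold higher and Col8a2 7.22-fold lower with PDGF-DD than with its vehicle, a gap of 3.42 between their log2 ratios. With IL-1b, Col8a1 was 2.39-fold higher than with its own vehicle but 1.35-fold lower than with the PDGF-DD vehicle, and Col8a2 was 1.16-fold lower and 2.06-fold lower. The short-chain gene Col10a1, known from growing cartilage, was above the floor on the IL-1b vehicle array alone, at 51.0.

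The 250 bases before the RefSeq start are shown for the type VIII chains, for Col11a1, which was lower than both vehicles with PDGF-DD, and for Col15a1, which was higher than both. They come from chr11:56246532-56246781 for Col8a1, chr5:143870519-143870768 for Col8a2, chr2:204508886-204509135 for Col11a1 and chr5:66297296-66297545 for Col15a1, all on GRCr8 and on the plus strand. Capitals again mark the GC box on either strand.
Col8a1: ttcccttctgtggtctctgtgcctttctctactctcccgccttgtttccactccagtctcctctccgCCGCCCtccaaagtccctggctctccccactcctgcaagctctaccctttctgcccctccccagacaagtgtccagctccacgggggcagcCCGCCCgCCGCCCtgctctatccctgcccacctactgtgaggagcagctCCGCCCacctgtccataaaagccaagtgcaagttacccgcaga
Col8a2: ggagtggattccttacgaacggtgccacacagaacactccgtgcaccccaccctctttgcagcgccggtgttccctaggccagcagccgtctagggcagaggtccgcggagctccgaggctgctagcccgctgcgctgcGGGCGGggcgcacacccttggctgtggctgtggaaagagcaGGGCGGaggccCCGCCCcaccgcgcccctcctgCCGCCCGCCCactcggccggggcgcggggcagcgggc
Col11a1: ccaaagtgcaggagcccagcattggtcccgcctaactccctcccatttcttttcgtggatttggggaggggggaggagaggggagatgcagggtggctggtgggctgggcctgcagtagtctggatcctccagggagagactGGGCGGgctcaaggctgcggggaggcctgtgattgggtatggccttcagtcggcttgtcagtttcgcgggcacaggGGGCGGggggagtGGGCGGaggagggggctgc
Col15a1: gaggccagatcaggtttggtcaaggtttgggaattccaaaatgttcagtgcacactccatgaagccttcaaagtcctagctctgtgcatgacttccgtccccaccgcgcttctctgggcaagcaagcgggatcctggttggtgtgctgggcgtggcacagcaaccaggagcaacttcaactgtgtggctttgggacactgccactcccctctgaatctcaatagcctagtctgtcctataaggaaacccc
Col8a1 held 4 GC boxes and Col8a2 held 5, of which the last overlap. The part of these letters in the ratios was not tested. Col11a1 held 3 and Col15a1 none. Col11a1 also held CCAAT on the reverse strand at 2 places, and none of the 4 windows held TATAAA. Within 250 bases before the start, the GC box stood in 18 of the 32 collagen genes with a RefSeq promoter and in 32.4% of all 27457 genes, CCAAT in 9 of 32 and 34.3%, and TATAAA in 4 of 32 and 13.1%.

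Of the beaded filament chains, Col6a1 and the brightest probe set of Col6a2 had their highest values with PDGF-DD. Col6a1 had intensities of 842, 687, 1257 and 1391 in the array order above, and Col6a2, its neighbour on chromosome 20 and partner in type VI collagen, had 471, 388, 601 and 1015. By these probe sets the IL-1b array and its vehicle were below the PDGF-DD array and its vehicle. The other measured probe set of Col6a2 did not keep this order: it read 65.9, 33.0, 50.3 and 58.7, highest on the IL-1b vehicle array. Its log2 ratio of the PDGF-DD vehicle over the IL-1b vehicle was -0.39, where the brightest probe set had 0.35. With PDGF-DD the log2 ratios of Col6a1 and the brightest Col6a2 probe set were 0.15 and 0.76, and with IL-1b -0.29 and -0.28, all under 2-fold. Col6a3, which encodes a further chain of the usual type VI trimer, was at the floor by both of its probe sets, the brighter reaching 27.9. Col6a6 had 39.9 with the IL-1b vehicle and 43.7 with IL-1b, and was at the floor on the other arrays.

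FACIT collagens bind to fibrils and do not form them. Col14a1, found in tissues with densely packed fibrils, had intensities of 1980 on the IL-1b vehicle array, 1894 with IL-1b, 2863 on the PDGF-DD vehicle array and 331 with PDGF-DD. The PDGF-DD array stood far below the other 3, at 8.64-fold lower than its own vehicle and 5.97-fold lower than the IL-1b vehicle, while IL-1b was 1.05-fold lower than its vehicle.

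Col12a1, the FACIT collagen most like it in structure, had 783, 1222, 273 and 194. Here the IL-1b array was the highest and the PDGF-DD array and its vehicle were the lowest. Col12a1 was 1.56-fold higher with IL-1b than with its vehicle, 4.48-fold higher than with the PDGF-DD vehicle, and 1.41-fold lower with PDGF-DD than with its vehicle. Col16a1 varied least of the bright chains, between 350 and 411 on the 4 arrays.

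Col19a1, a rare basement membrane zone collagen, was read at 166 on the PDGF-DD vehicle array and 45.7 on the IL-1b vehicle array, and at the floor with either factor. It was at least 5.93-fold lower with PDGF-DD and at least 1.63-fold lower with IL-1b, on a single dim probe set. Col9a2 had 51.4, 31.8 and 37.7 and was at the floor with PDGF-DD. The transmembrane chain Col23a1 was above the floor with IL-1b alone, at 55.6, at least 1.98-fold higher than either vehicle. It was not called, but this bound is set by the floor and does not show whether the difference reached 2-fold.

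The other 15 collagen genes were at the floor on all 4 arrays. They were Col2a1, Col4a4, Col6a3, Col6a5, Col7a1, Col9a1, Col9a3, Col11a2, Col13a1, Col17a1, Col20a1, Col22a1, Col24a1, Col25a1 and Col26a1. The share that exceeded the floor somewhere was 63.4% for collagen genes (26 of 41) and 76.6% for all genes.

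Genes with several probe sets gave a measure of how far a ratio depends on the stretch of the transcript that was probed. In 12 collagen genes the brightest probe set and the next were both measured, and their log2 ratios differed by a median of 0.18 for IL-1b and 0.11 for PDGF-DD; over all such genes the medians were 0.24 and 0.23. This covers probe differences only, not differences between cultures. With PDGF-DD the other probe sets of Col14a1, Col15a1, Col4a1 and Col11a1 gave -2.68, 1.90, -1.31 and -1.16, the same direction and at least 2-fold each. With IL-1b the next probe sets of Col11a1 and Col4a6 gave -2.18 and -1.20, and another probe set of Col11a1, near the floor, gave -0.20. Col12a1 gave 0.64 and 1.37 with IL-1b and -0.49 and -0.04 with PDGF-DD. Col6a2 gave 0.76 and 0.22 with PDGF-DD and -0.28 and -1.0 with IL-1b. Col4a2, Col8a1, Col8a2 and Col27a1 had a single probe set and no such check.

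**Figure D4:**
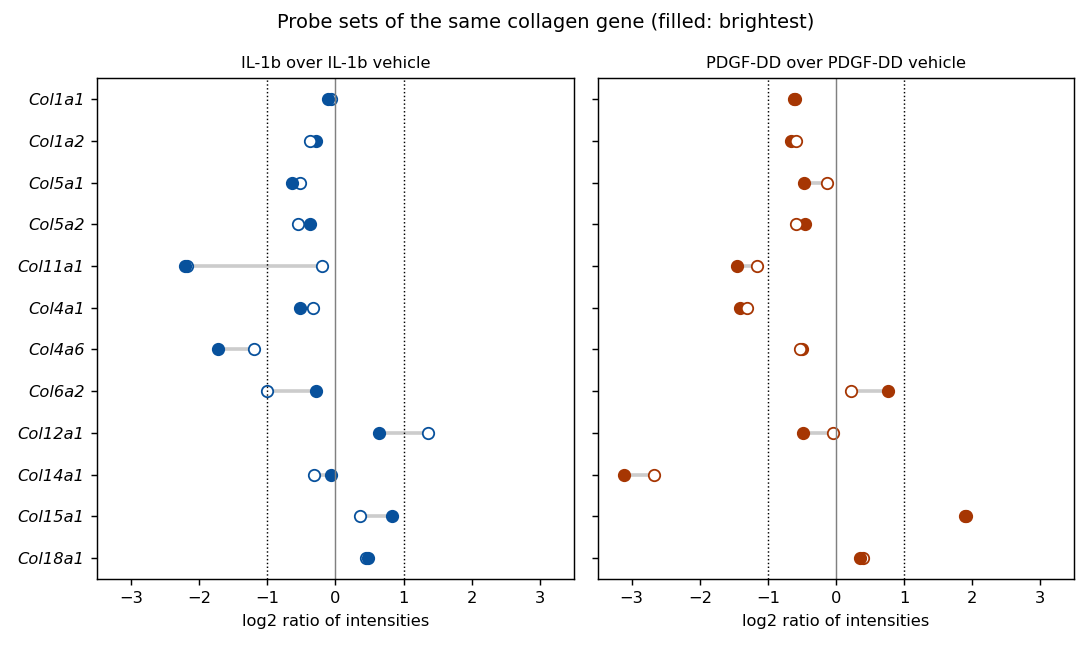
Log2 ratios of intensities from each measured probe set of the 12 collagen genes with more than 1, for IL-1b (left) and PDGF-DD (right) over their vehicles; filled circles are the brightest probe set, open circles the others, grey bars join them, and dotted lines mark 2-fold. With PDGF-DD both probe sets of Col14a1 (-3.11 and -2.68) and of Col15a1 (1.89 and 1.90) lie past 2-fold. With IL-1b Col11a1 spans the widest gap, from -2.21 to -0.20, the latter from a probe set near the floor. Col12a1 and Col6a2 also show wide gaps.

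Genes that act with the collagen chains were counted by list, to be read against the shares of all genes past 2-fold: 6.15% higher and 5.42% lower with IL-1b, 4.24% higher and 4.67% lower with PDGF-DD. Of 17 measured enzymes and chaperones that fold collagen in the endoplasmic reticulum, 0 were at least 2-fold apart with PDGF-DD (median log2 ratio -0.12), beside 8.91% of all genes in either direction. With IL-1b 1 was, P4ha3, a prolyl 4-hydroxylase subunit, at 3.45-fold lower (median 0.18), beside 11.6%. Both counts are near those shares. P4ha3 had intensities of 2548, 739, 1896 and 1045 and was lower with IL-1b than both vehicles. Serpinh1 (HSP47, the collagen chaperone) had log2 ratios of -0.08 with IL-1b and -0.16 with PDGF-DD, and P4ha1 of -0.17 and -0.33. The dimmer probe set of Serpinh1 gave 1.15 with IL-1b, and that of P4ha2 gave 1.85 with IL-1b and -1.503 with PDGF-DD, beside 0.84 and 0.04 from its brighter one.

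Of 13 listed genes of procollagen cleavage and crosslinking only 6 were found on the array, and all 6 were measured. Of these, 0 were at least 2-fold apart in either factor's comparison (median -0.35 with IL-1b and -0.34 with PDGF-DD). This count is also near the shares of all genes, 11.6% and 8.91%. Lox, lysyl oxidase, which crosslinks collagen and elastin, was closest, at 5572, 5698, 6885 and 3513, with a log2 ratio of -0.97 with PDGF-DD and 0.03 with IL-1b. Its other probe set gave -1.17 and 0.14.

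Of the fibril assembly partners, 3 of 7 measured passed 2-fold downward with PDGF-DD and 0 upward (median -0.68), beside 4.67% and 4.24% of all genes, namely Thbs2, a matricellular thrombospondin, at 16.9-fold, Fmod (fibromodulin) at 7.64-fold and Lum (lumican) at 2.75-fold. With IL-1b 2 of 8 were at least 2-fold higher, Thbs2 at 10.7-fold and Lum at 2.92-fold, and 0 lower (median 0.25), beside 6.15% and 5.42% of all genes. Fmod had intensities of 7130, 4302, 3190 and 417, and Lum had 2067, 6041, 1022 and 372, so the PDGF-DD array was the lowest for both and the IL-1b array the highest for Lum. Thbs2 had 87.7, 935, 2146 and 127, and its vehicle arrays were 24.5-fold apart, so that with IL-1b it was 2.30-fold lower than with the PDGF-DD vehicle. With PDGF-DD it was 1.45-fold higher than with the IL-1b vehicle, so both directions depend on the vehicle chosen.

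Of 9 listed collagen receptors 5 were found on the array and measured (median -0.30 with IL-1b and -0.55 with PDGF-DD). Among these, 1 was at least 2-fold lower in each comparison, beside 5.42% and 4.67% of all genes. Itga11, the integrin chain that binds fibrillar collagen, was at 984 and 990 on the vehicle arrays, 121 with IL-1b and 59.6 with PDGF-DD. It was 8.11-fold and 16.6-fold lower than the own vehicle of each factor. Itga1, Itgb1 and the kinase receptors Ddr1 and Ddr2 stayed under 2-fold, with log2 ratios between -0.77 and 0.71.

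Of 8 measured genes of collagen breakdown, 4 passed 2-fold upward with IL-1b and 0 downward (median 0.92), beside 6.15% and 5.42% of all genes. The collagenase Mmp13 was at least 10.1-fold higher, at 284, the gelatinase Mmp2 4.01-fold, the membrane protease Fap 2.55-fold and cathepsin K, Ctsk, 2.52-fold. The 4 that did not pass were Mmp9, at a bound of 0.51, Mmp14 at 0.30, Pepd at 0.15 and Mmp16 at -0.30 on the log2 scale. Against the PDGF-DD vehicle Mmp13 and Mmp2 kept at least 2-fold, and Fap and Ctsk had log2 ratios of 0.64 and 0.15. The other probe set of Mmp2 gave 0.70. With PDGF-DD (median -0.23) 1 of 6 was at least 2-fold higher, beside 4.24% of all genes, the membrane-type protease Mmp16 at 4.32-fold, and the vehicle arrays were 2.45-fold apart for it. Against the IL-1b vehicle Mmp16 was 1.76-fold higher with PDGF-DD, under 2-fold.

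Of 15 measured regulators of collagen genes, 3 passed 2-fold upward and 1 downward with IL-1b (median -0.03), beside 6.15% and 5.42% of all genes, the downward count near its share. Creb3l1, a membrane-bound transcription factor that activates type I collagen genes in bone, had intensities of 190, 1372, 240 and 96.9, so it was 7.22-fold higher with IL-1b and 2.48-fold lower with PDGF-DD. Cebpb and Tgfb1 were 4.26-fold and 2.67-fold higher with IL-1b, and Tgfb3 4.38-fold lower. With PDGF-DD 4 of 15 passed it downward and 0 upward (median -0.43), beside 4.67% and 4.24% of all genes: Creb3l1, Tgfb3 (2.05-fold), Scx, a tendon transcription factor (2.01-fold), and Cebpb (2.003-fold). Scx and Cebpb are at the edge of the rule. Cebpb with IL-1b had a log2 ratio of 0.61 to the PDGF-DD vehicle, under 2-fold. With PDGF-DD, Cebpb was 1.39-fold higher than with the IL-1b vehicle, so its direction depends on the vehicle chosen. Creb3l1, Tgfb3 and Scx stayed lower in that comparison, at log2 ratios of -0.97, -1.36 and -0.62.

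**Figure D5:**
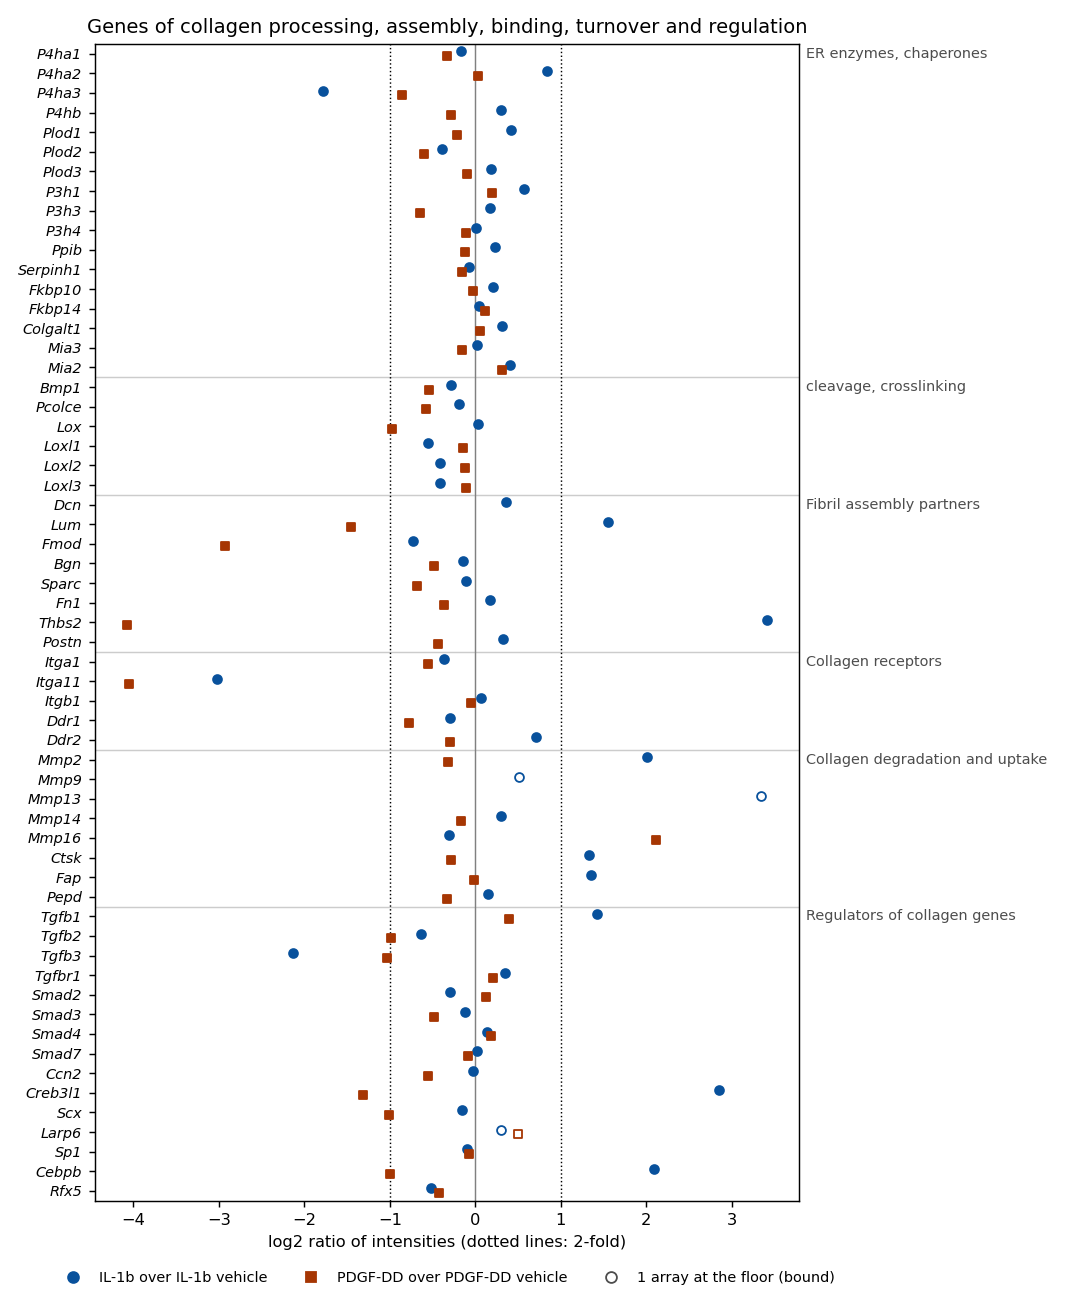
Log2 ratios of intensities of the measured genes of 6 lists on collagen processing, assembly, binding, turnover and regulation, for IL-1b (circles) and PDGF-DD (squares) over their vehicles; open symbols are bounds and dotted lines mark 2-fold. Folding enzymes lie within 2-fold except P4ha3 with IL-1b, while Thbs2, Lum and Creb3l1 lie past 2-fold on opposite sides for the 2 factors and Itga11 is low with both.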

How the data were processed

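The deposited values are linear MAS5 intensities of 31099 probe sets on 4 arrays, made by the authors with MAS5 per the submitters' processing notes; no version is given in the sources used here. The columns share a median of 53.3, and the scaling target is not stated. Arrays were rescaled to a common mean after trimming 2% of probe sets at each end (factors 0.951 to 1.03), and values under the 40th percentile of all values (28.1) were set to this floor. Gene symbols came from GEO's 2016 array annotation (20832 probe sets with 1 symbol, 436 with several, 9831 not listed). All 41 collagen genes matched GRCr8 RefSeq by identifier and symbol. Where a gene had several probe sets, the brightest by mean log2 intensity represented it. A gene was measured where above the floor on at least 1 array compared, called at 2-fold or more, and given a bound where 1 array was at the floor. Every measured collagen gene is named; from each list come its counts and up to 4 members with the largest ratios, plus Serpinh1, P4ha1, Lox and Itga11. Mki67 was added. Members, lists and rules were chosen with earlier results of these data known. The alternatives were the scaling, the floor, the probe set rule and a 1.5-fold rule. The steps were tested on simulated data. Python 3.11.15, numpy 2.4.6 and pandas 2.3.3 were used.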

Additional observations from a re-analysis of the deposited data

Results flagged for a closer look

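For 3 collagen genes the arrays of both factors lay on opposite sides of their vehicles by more than probe sets of the same gene usually differ; the difference was not tested, since each group is 1 array. Col5a3 had a log2 ratio of 1.3002 with IL-1b, a bound from a vehicle value at the floor, and -0.60 with PDGF-DD. Col6a2 had -0.28 with IL-1b and 0.76 with PDGF-DD. Col12a1 had 0.64 with IL-1b and -0.49 with PDGF-DD. Its other measured probe set gave 1.37 with IL-1b and -0.04 with PDGF-DD, where the PDGF-DD array was at the floor.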

How the results depend on the processing

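No paired analysis was possible because each group is 1 array. The 38 ratios of single collagen genes of at least 2-fold, over all 5 comparisons, kept their direction in all 228 recomputations and at least 2-fold in 218. Many of these recomputations could not move a ratio. Another floor leaves bright genes as they were, and the probe set rule leaves genes with 1 probe set as they were. With the mean of all probe sets the log2 ratio of Col11a1 with PDGF-DD was -0.87, because a probe set near the floor entered the mean. The same setting gave -0.74 for Col12a1 between the vehicles, and with no floor Col8a2 with IL-1b was at -0.98 against the PDGF-DD vehicle. Collagen medians moved by less than the usual difference between probe sets of a gene, and no count or median reversed. Of 100 counts and medians under the alternatives 13 moved, each a count that changed by over 1.5 times. Lower with IL-1b: 5 with a floor at the 30th percentile and 5 with no floor, adding 16 before the log, in place of 3. Higher with IL-1b: 1 with a floor at the 50th percentile in place of 2. IL-1b higher than the PDGF-DD vehicle: 2 with the lower floor and 2 with none, in place of 1. A 1.5-fold rule gave 5 higher and 7 lower with IL-1b, 2 higher and 11 lower with PDGF-DD, 6 lower on the PDGF-DD vehicle than the IL-1b vehicle array, 3 higher and 7 lower with IL-1b than the PDGF-DD vehicle, and 17 lower with PDGF-DD than the IL-1b vehicle. More genes of any kind pass this looser rule. The share of all genes past 1.5-fold is not given here, so these counts show only how the number called depends on the rule. Signal over background limits Col5a3, Col19a1, Col23a1 and Col27a1, whose folds follow the floor. The count of 0 collagen genes past 2-fold from both vehicles with IL-1b also follows it.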
